A study of Mus musculus with 2 samples.

Results

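The genes followed here encode surface proteins by which tumor cells restrain immune cells: Cd274 (PD-L1), Pdcd1lg2 (PD-L2), Cd276 (B7-H3), Cd200, Cd47, Pvr (CD155) and Nt5e (CD73). They were taken by symbol from the table of gene counts, and all 7 members were found among its 25509 genes. Transcriptional profiling was performed on mouse soft-tissue sarcoma cells in 2 RNA-seq libraries. One library came from cells carrying a hairpin against circCsnk1g3 (shcircCsnk1g3), a circular RNA made by backsplicing of exons of Csnk1g3, and the other from cells carrying the control hairpin (shCTR). The comparison asks what the silencing of this circRNA changed in the tumor cells, and for these genes whether the signals shown to immune cells differed.

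Both libraries shared the C57BL/6 strain and the p53-/- Ccne1+ genotype. According to the study's methods, mesenchymal stem cells were isolated from the long bones of p53-null mice through a gate that was negative for CD45, CD31 and Ter119 and positive for Sca1 and PDGFRa, and Ccne1 was then overexpressed. Per the labels, these cells formed subcutaneous tumors in a first set of mice, were moved to the lungs of other mice, were recovered from the lung foci, and received their hairpin after that. The culture is thus a mouse model that begins from 1 kind of engineered stem cell, and the number of animals behind a library is not given in the sources used here. The labels do not name the hairpin design. For the sequenced cells the paper refers to the hairpins of its first silencing experiment, and it tested further designs apart from these. With 1 library per group there was no replicate check, and no test between conditions was made. Each interval of a log2 fold change below is the 95% Clopper-Pearson interval of counting error, which compares these libraries and not the conditions. The intervals of levels, shares and ratios between members likewise cover counting error only.

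Inhibitory ligands act on receptors carried by lymphocytes and myeloid cells. PD-L1 and PD-L2 engage PD-1 on T cells, CD47 engages SIRPa on phagocytes and blocks engulfment, CD200 engages the CD200 receptor on myeloid cells, and CD155 engages TIGIT, CD96 and the activating receptor CD226 on T and NK cells. CD73 works differently: it is an enzyme that turns AMP outside the cell into adenosine, which dampens T cells through adenosine receptors. Transcription of Cd274 is known to be raised by interferons through IRF1, and its locus lies beside that of Pdcd1lg2.

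Of the 6 members with a RefSeq promoter sequence on GRCm38.p6, 3 held the core letters bound by interferon regulatory factors, AANNGAAA on either strand, within 250 bases before their RefSeq start. The 28 bases around each are shown because interferon-stimulated genes differ between these libraries and Cd274 is known as one of the genes that interferons induce. Capitals mark the matched letters, and each sequence reads along the strand of its gene.
Cd274, chr19:29367253-29367280, plus strand: cgaagcctagTTTCGTTTtttcttaaac
Pdcd1lg2, chr19:29410874-29410901, plus strand: acccccgcttTTTCTTTTtaacaggaaa
Cd200, chr16:45409140-45409167, minus strand: aataaatctaAAATGAAAaaaatataga
The first matched base lay 175 bases before the start of Cd274, 35 before that of Pdcd1lg2 and 104 before that of Cd200. The Cd274 window also lies in an untranslated exon of Plgrkt, a neighbouring gene on the opposite strand. Such letters are common: 21.6% of 27025 mouse promoters of the same length held them, and the match is a description of the sequence only. The interferon-gamma activated site TTCNNNGAA (7.18% of promoters) and the TATA box TATAAA (13%) were found in none of the 6. The HIF core ACGTG (16.6% of promoters) was found before Cd47 alone, and the GC box GGGCGG (32.9% of promoters) before Cd274, Cd47, Cd200, Cd276 and Nt5e. Across 9582 matched genes tested, the median log2 fold change was 0.01 for the 1510 with the IRF letters and 0.00 for the 8072 without.

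The libraries held 38792143 counts for shcircCsnk1g3 and 42709996 for shCTR, and 12941 genes with 10 counts or more in either library were tested, all 7 members among them. Levels are given as CPM (counts relative to library size, which is scaled by the TMM factors), and a fold change is the log2 ratio of CPM with a prior count of 2. Cd274, Pdcd1lg2, Cd47, Cd276 and Pvr had a higher level in shcircCsnk1g3, Nt5e had a lower one, and Cd200 was nearly level. The members ran from -0.49 to 0.42 with a median of 0.14, beside a median of 0.00 over all genes tested. No member was 1.5-fold higher or lower, a size of 0.58 on the log2 scale that 5.39% of the genes tested reached upward and 6.31% downward. Past the smaller size of 0.32 on the log2 scale, 2 members (Pvr and Cd274) were higher against 12.3% of the genes tested, and 1 (Nt5e) was lower against 13.1%. The counting interval lay above 0 for 3 members (Pvr, Cd274 and Cd47) against 26.9% of the genes tested, lay below 0 for 1 (Nt5e) against 28.2%, and held 0 for the other 3.

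**Figure D1:**
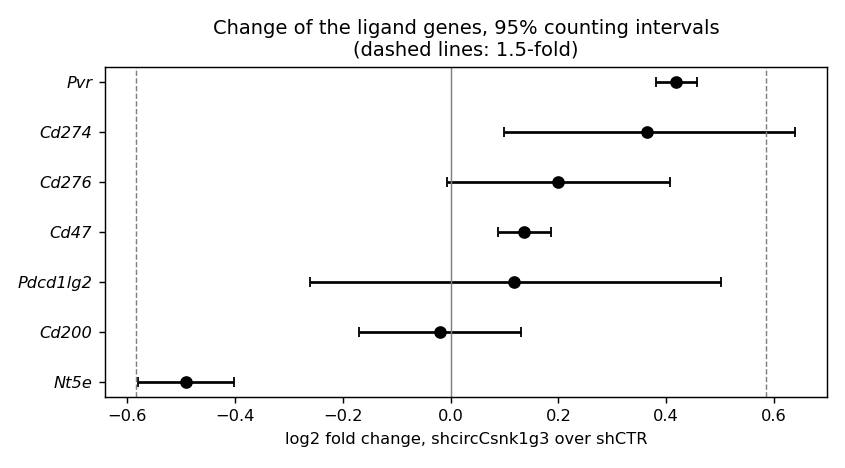
Log2 fold change of the 7 ligand genes, shcircCsnk1g3 over shCTR, on the horizontal axis, with 1 point per gene and bars for the 95% counting interval. Pvr at 0.42 and Nt5e at -0.49 are the ends of the range, and no point passes the dashed lines at 1.5-fold.

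Pvr, the ligand of TIGIT, CD96 and CD226, had the most counts of the 7 members. It held 12487 counts in shcircCsnk1g3 and 10065 in shCTR, or 318 and 238 CPM. The silenced library was thus the higher one, with a log2 fold change of 0.42 (interval 0.38 to 0.46), and 91.1% of the genes tested, at all depths, had a lower value. The gene, ENSMUSG00000040511.13, lies at chr7:19903578-19921160 on the minus strand in the GENCODE M21 annotation of GRCm38, from which the positions of the other genes are taken as well. The promoter windows above use RefSeq starts, which differ from the M21 gene start for Cd274, Cd47, Cd276 and Nt5e, and the windows of the last 3 lie inside the M21 gene. No promoter sequence is shown for Pvr.

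Cd274, which encodes PD-L1, was a low-count gene in these cells. It held 254 counts in shcircCsnk1g3 and 212 in shCTR, or 6.48 and 5.02 CPM, at ENSMUSG00000016496.7 (chr19:29367455-29388095, plus strand). Its log2 fold change was 0.37, close to that of Pvr, but its interval of 0.10 to 0.64 was far wider at this depth. Of its exon bases, 14.1% overlap the gene AC119228.1 on the opposite strand, and whether the counting used strand is not given in the sources used here.

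Pdcd1lg2, for PD-L2, the other ligand of PD-1, had 118 counts in shcircCsnk1g3 and 117 in shCTR, or 3.01 and 2.77 CPM (ENSMUSG00000016498.9, chr19:29410919-29471161, plus strand). Its log2 fold change was 0.12 with an interval of -0.26 to 0.50, so that a difference in either direction was not detectable at this depth. Cd274 made up 68.3% of the 372 counts of both PD-1 ligands in shcircCsnk1g3 (exact interval 63.3 to 73.0) and 64.4% of 329 in shCTR (59.0 to 69.6). These shares overlap, and the ratio of Cd274 to Pdcd1lg2 in shcircCsnk1g3 was 1.19 times that in shCTR (interval 0.857 to 1.65).

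Cd276, whose product B7-H3 is a B7-family protein on many tumors, had 403 counts in shcircCsnk1g3 and 378 in shCTR, or 10.3 and 8.95 CPM (ENSMUSG00000035914.10, chr9:58524298-58555437, minus strand). It stood at 0.20 on the log2 scale, and the interval of -0.01 to 0.41 just held 0. An overlap with Gm10657 on the opposite strand covers 11.4% of its exon bases.

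The ligands that act on myeloid cells were close to level. Cd47 held 6708 counts in shcircCsnk1g3 and 6573 in shCTR, or 171 and 156 CPM (ENSMUSG00000055447.18, chr16:49800533-49915010, plus strand). With so many counts the interval around its small value of 0.14 ran from 0.09 to 0.19 and did not reach 0. Cd200 held 692 and 756 counts, or 17.6 and 17.9 CPM (ENSMUSG00000022661.14, chr16:45382135-45409053, minus strand). Its log2 fold change was -0.02 (interval -0.17 to 0.13), which bounds a difference between these libraries to less than that of Pvr.

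Nt5e was the member with a clearly lower level in the silenced library. It held 1682 counts in shcircCsnk1g3 and 2547 in shCTR, or 42.9 and 60.3 CPM (ENSMUSG00000032420.7, chr9:88327197-88372092, plus strand). Its log2 fold change was -0.49 (interval -0.58 to -0.40), and 8.02% of the genes tested, at all depths, had a lower value. In bulk RNA, fewer cells of a type and less RNA per cell cannot be told apart. CD73 is also used as a surface marker of mesenchymal stem cells, and 11 of the 12 tested mesenchymal marker genes had a log2 fold change below 0 as well, with a median of -0.14 that scaling to the reference genes described last brings to -0.00. Among them, Ly6a (Sca1) had 1854 counts in shcircCsnk1g3 and 3223 in shCTR, a log2 fold change of -0.69. The part of these markers in the Nt5e value was not tested.

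**Figure D2:**
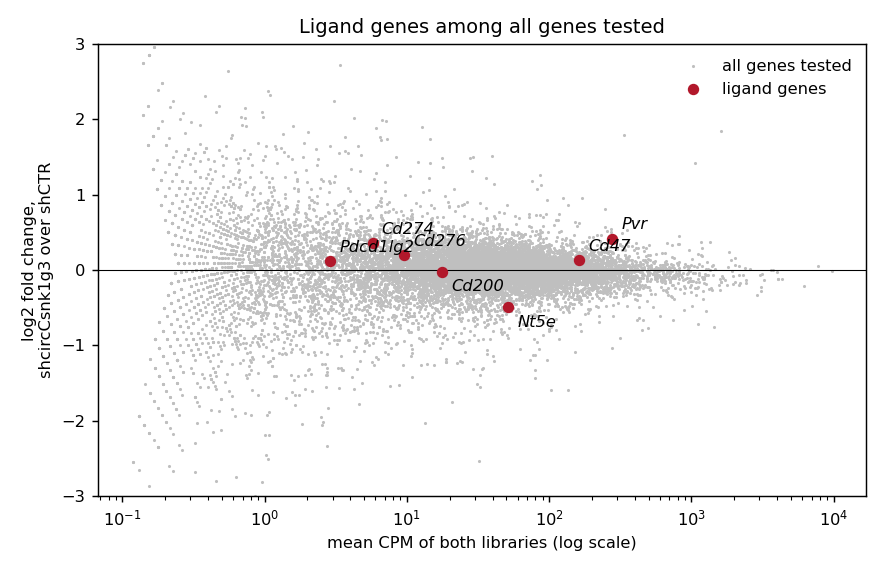
Mean CPM of both libraries on a log axis against the log2 fold change, shcircCsnk1g3 over shCTR, with grey points for the genes tested and red points for the 7 ligand genes; 25 genes beyond 3 on the vertical axis lie outside the plot. Pvr at 0.42 lies above 91.1% of the genes tested, 8.02% of them lie below Nt5e at -0.49, and Cd200 at -0.02 lies within the grey band.

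Ratios between members within a library do not depend on the scaling between libraries. Of 21 pairs, 10 had a ratio whose counting interval excluded 1, and these included the 6 pairs with Nt5e. Pairs of other genes were not counted, so no background share stands beside this number. Among single genes tested, the counting interval of the fold change lay above 0 for 26.9% and below 0 for 28.2%. Nt5e relative to Pvr was 0.532 times its shCTR value in shcircCsnk1g3 (interval 0.498 to 0.569). Relative to Nt5e, Cd274 was 1.81 times its shCTR value (1.49 to 2.21), Pdcd1lg2 1.53 times (1.16 to 2.0) and Cd200 1.39 times (1.23 to 1.57). Relative to Pvr, Cd274 was 0.966 times its shCTR value (0.800 to 1.17), which holds 1, while Cd47 was 0.823 times (0.788 to 0.859), Cd276 0.859 times (0.743 to 0.994) and Cd200 0.738 times (0.662 to 0.822). The remaining pair whose interval excluded 1 was Cd274 relative to Cd200, at 1.31 (1.06 to 1.62). These pairs share genes and are not independent of each other.

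Levels of different genes were compared per kilobase of annotated exons. Pvr was the highest member in both libraries, at 52.0 CPM per kb in shcircCsnk1g3 and 38.9 in shCTR, and Cd47 followed at 27.3 and 24.8. Nt5e came next in shCTR, at 7.01 (Poisson interval 6.74 to 7.29) above Cd200 at 5.39 (5.01 to 5.79). In shcircCsnk1g3 the order was turned, with Cd200 at 5.31 (4.92 to 5.72) and Nt5e at 4.99 (4.75 to 5.23), and these intervals overlap. With the longest annotated transcript as the length, Nt5e stood above Cd200 in both libraries, at 10.7 against 7.52 CPM per kb in shcircCsnk1g3 and 15.1 against 7.62 in shCTR. Cd276 followed at 2.81 and 2.45 per kb of annotated exons. Cd274 (1.79 and 1.39) and Pdcd1lg2 (1.53 and 1.41) were the lowest members, and their intervals overlapped in both libraries. Per kilobase of coding sequence, Cd274 stood above Pdcd1lg2 in both, at 7.44 against 4.06 in shcircCsnk1g3 and 5.77 against 3.74 in shCTR, so their order in shCTR depends on the length used. Summed per length, Pvr made up 54.3% of the members' level in shcircCsnk1g3 and 47.8% in shCTR, and Nt5e 5.21% and 8.62%.

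**Figure D3:**
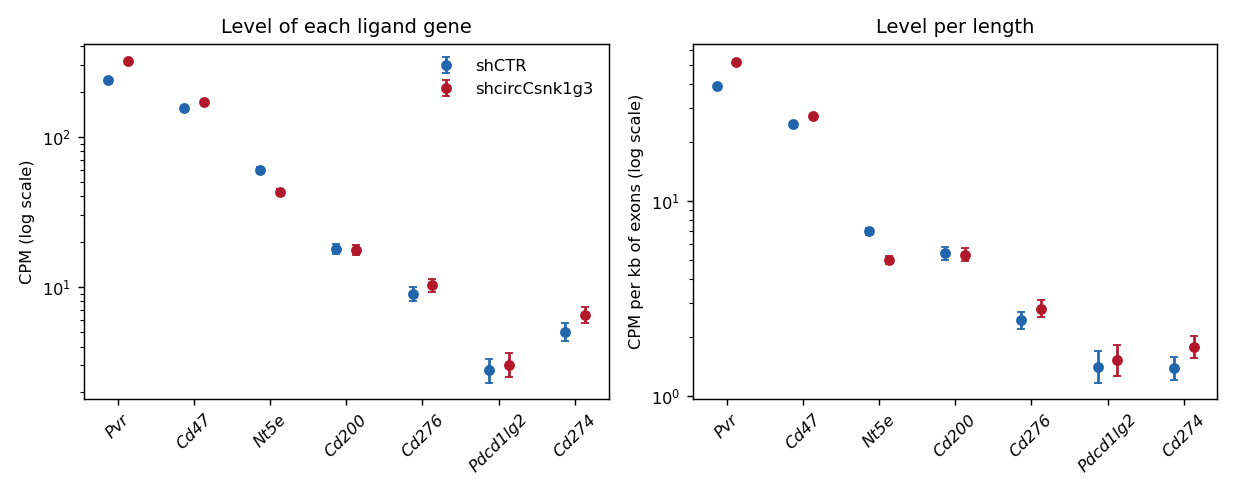
Level of each ligand gene in shCTR (blue) and shcircCsnk1g3 (red), as CPM on the left and as CPM per kb of annotated exons on the right, both on log axes, with bars for the 95% Poisson counting interval of the 1 library. Pvr and Cd47 stand apart at the top of both panels, and Nt5e is the gene whose red point lies clearly below its blue one, at 42.9 against 60.3 CPM.

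The enzymes, transporters and receptors around CD73 were read alongside Nt5e. Of 17 adenosine pathway genes, 9 were tested, of which 1 lay above 0 and 8 below 0, with a median log2 fold change of -0.27. The counting interval lay below 0 for 4 of them and above 0 for none, beside 28.2% and 26.9% of all genes tested. Enpp1, an ectoenzyme that makes AMP from nucleotides outside the cell, had 78 counts in shcircCsnk1g3 and 214 in shCTR, a log2 fold change of -1.33 (interval -1.74 to -0.97). Pnp, which breaks down inosine, the product of adenosine deamination, had 2768 and 4350 counts and a log2 fold change of -0.54 (-0.61 to -0.48). Adk and Ada, the enzymes that clear adenosine, stood at -0.27 and -0.21. Entpd1 (CD39), the usual source of AMP for CD73, had 2 and 1 counts, at or under the floor of 3 counts below which no fold is given. Of the receptors, Adora2b had 29 and 32 counts and Adora2a 1 and 0.

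The binding partners of the ligands are mostly genes of immune cells, and most were near 0. Pdcd1 (PD-1) had 1 count in each library, Sirpa 7 in each, and Cd200r1, Cd226 and Cd96 had 0 in both, for which the floor of 3 counts corresponds to 0.0765 CPM in shcircCsnk1g3 and 0.0710 in shCTR. Tigit, a receptor of CD155 known from T and NK cells, was an exception with 1744 counts in shcircCsnk1g3 and 2615 in shCTR, or 44.5 and 61.9 CPM. Its log2 fold change was -0.48 (interval -0.57 to -0.39), opposite in sign to that of Pvr. Thbs1, a matrix protein that binds CD47, had 42428 and 76914 counts and a log2 fold change of -0.75 (-0.77 to -0.73). Rgmb, a further partner of PD-L2, had 2611 and 3157 counts and stood at -0.17. The 4 genes of this partner list that were tested lay below 0 with a median of -0.32. They include Adora2b at -0.03, which binds adenosine rather than CD73 and is also counted among the adenosine pathway genes. Scaling to the reference genes turned Adora2b to 0.11. The median moved with the genes that entered it, from -0.48 with at least 200 summed counts (3 genes) to -0.03 with no count filter (7 genes).

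Leukocyte markers were close to absent. Of 18, 15 were at or under the floor in both libraries and 11 were at 0 in both, Cd3e, Cd8a and Itgam among them, and Ptprc (CD45) had 1 and 0 counts. Their summed level was 2.58 CPM in shcircCsnk1g3 and 4.0 in shCTR, most of it Cd68 with 87 and 155 counts. Summed counts of the 9 endothelial markers were 104 and 100, and those of the 10 lung epithelial markers 121 and 79, with 5 of the latter, Epcam and Sftpc included, at 0 in both. Krt8 led these with 92 and 46 counts. Mesenchymal markers summed to 11858 and 13046 CPM, although Thy1 had 0 and 1 counts.

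Other inhibitory ligands were more often lower than higher in shcircCsnk1g3, but not all went 1 way. Of 16, 13 were tested, of which 4 lay above 0 and 9 below 0, with a median of -0.35. The counting interval lay above 0 for 3 and below 0 for 8, beside 26.9% and 28.2% of all genes tested. At least 1.5-fold, 1 was higher and 4 were lower, beside 5.39% and 6.31% of all genes tested. Of those 4, Btn1a1 rested on 4 and 15 counts and Vsir on 34 and 63. Vtcn1 (B7-H4), a relative of Cd276, had 269 counts in shcircCsnk1g3 and 174 in shCTR, a log2 fold change of 0.73 (interval 0.46 to 1.02). Clec2d, a ligand of an inhibitory NK receptor, had 41 and 119 counts and stood at -1.39 (-1.98 to -0.91). The nectins are the family to which Pvr belongs: Nectin1 had 165 and 294 counts and a log2 fold change of -0.72, Nectin3 1253 and 1566 counts and -0.21, and Nectin2, another ligand of TIGIT, only 3 and 1 counts. The higher level of Pvr was thus not shared by Nectin1 or Nectin3.

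Activating ligands were sparse. Of 12 co-stimulatory ligands 4 were tested, with 3 above 0 and 1 below 0. Those above 0 rested on few counts, with 21 and 7 for Icosl, 18 and 11 for Cd40 and 16 and 13 for Icam1. Their log2 fold changes were 1.44 (interval 0.40 to 3.17), 0.72 (-0.34 to 2.05) and 0.36 (-0.74 to 1.58). Thus 2 of the 4 were at least 1.5-fold higher, beside 5.39% of all genes tested. The list's median of 0.54 turned to -0.10 with no count filter (9 genes) and with at least 50 summed counts, which left Tnfsf9 alone. Cd80, the CD28 ligand that also binds PD-L1, had 3 and 0 counts. Tnfsf9 (4-1BB ligand), the only one past 100 summed counts, had 228 and 264 counts and stood at -0.10 (interval -0.37 to 0.16). The table held 5 NKG2D ligands, of which 3 were tested, and all lay below 0 with a median of -0.19. Raet1e had 16 and 35 counts and a log2 fold change of -0.94 (interval -1.97 to -0.13). Raet1d had 310 and 377 counts and a log2 fold change of -0.17 (-0.40 to 0.05), and Ulbp1 had 56 and 69 counts and -0.19 (-0.73 to 0.34), so that the intervals of these last genes held 0.

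**Figure D4:**
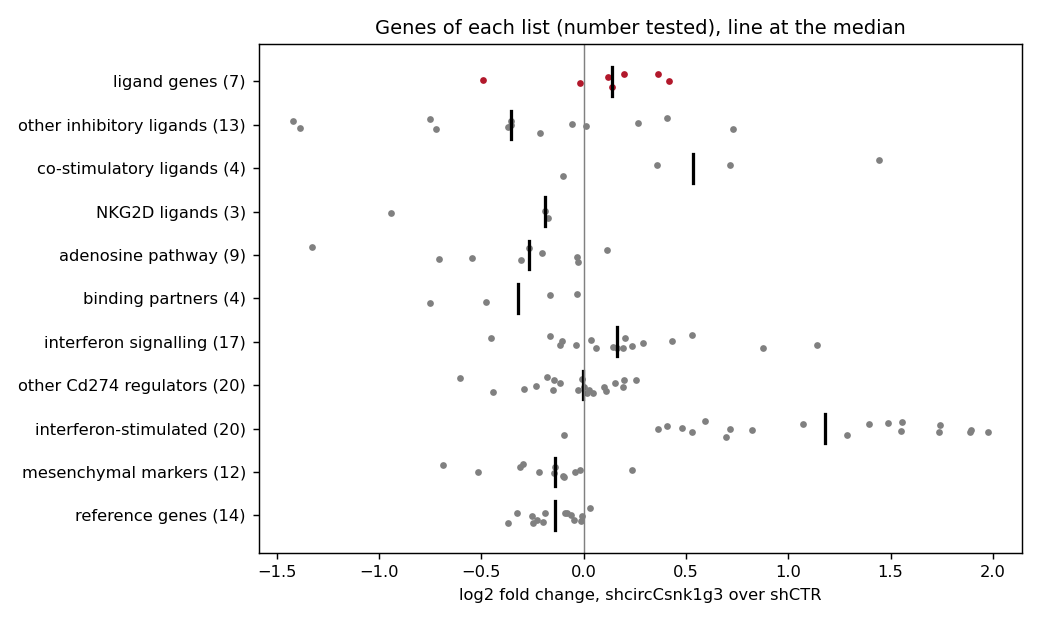
Log2 fold change, shcircCsnk1g3 over shCTR, of each gene tested in 11 gene lists, with 1 point per gene, the number tested in brackets and a black line at the median. The ligand genes (red) lie between -0.49 and 0.42 with a median of 0.14. The interferon-stimulated genes have a higher median of 1.18, but the lowest of them, at -0.09, lies within the range of the ligand genes.

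Interferon-stimulated genes, among which PD-L1 is often counted, were much higher in shcircCsnk1g3: 19 of 20 lay above 0 and 15 were at least 1.5-fold higher (5.39% of all genes tested), with a median of 1.18. Ifi44 had 447 counts in shcircCsnk1g3 and 121 in shCTR, and Rtp4 had 791 and 228, with log2 fold changes of 1.97 and 1.89. The value of Cd274, 0.37, lay at the lower end of this list, beside Ifih1 at 0.36. Of 17 genes that carry or restrain interferon signals, 12 lay above 0 and 5 below 0, with a median of 0.16. Irf9 and Stat2, which act together in the type I response, stood at 1.14 and 0.88 with 2196 and 1290 counts in shcircCsnk1g3 against 1073 and 756. Irf1, through which Cd274 is induced, stood at 0.43 (2093 and 1669 counts). Nlrc5, the activator of MHC class I genes, stood at 0.29, Jak2 at 0.24, Jak1 at -0.10 (0.037 under scaling to the reference genes) and the feedback inhibitor Socs1 at -0.45.

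Genes that act on the PD-L1 protein or on Cd274 transcription otherwise had no common direction, with 9 of 20 above 0, 11 below 0 and a median of -0.00. Cmtm6 and Cmtm4, which protect PD-L1 from degradation, had log2 fold changes of -0.23 (689 and 872 counts) and -0.44 (4679 and 6847 counts). B3gnt3, a glycosyltransferase that modifies PD-L1, stood at -0.60 with 182 and 299 counts, and Nfkb1 stood at 0.20. For CD47, Qpctl, the enzyme that modifies its amino terminus for SIRPa binding, stood at -0.24 (607 and 772 counts). Of 5 listed regulators of CD47, 3 lay above 0, and the median of the 5 was 0.15. Those 3 are also counted among the 20 genes above. Transcript levels alone were measured, and the proteins were not.

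Cd274 lies in a stretch of genes that did not move as 1 block. Of 13 genes tested within 500 kb of its start, 8 lay above 0 and 5 below 0, with a median of 0.12. The counting interval lay above 0 for 4 of them and below 0 for 3, beside 26.9% and 28.2% of all genes tested. Plgrkt, which reads the other way from a start at -0.065 kb, just upstream of Cd274, stood at 0.20 (700 and 658 counts, interval 0.04 to 0.35). Ric1, 154.8 kb downstream, stood at 0.40 (1716 and 1402 counts, interval 0.30 to 0.50), which is as large as the value of Cd274. Around the other members, Cd47 had 1 tested neighbour, Cd200 had 5, Cd276 had 9 of which 7 lay below 0, Nt5e had 6 with a median of -0.04, and Pvr had 15 with a median of -0.04.

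**Figure D5:**
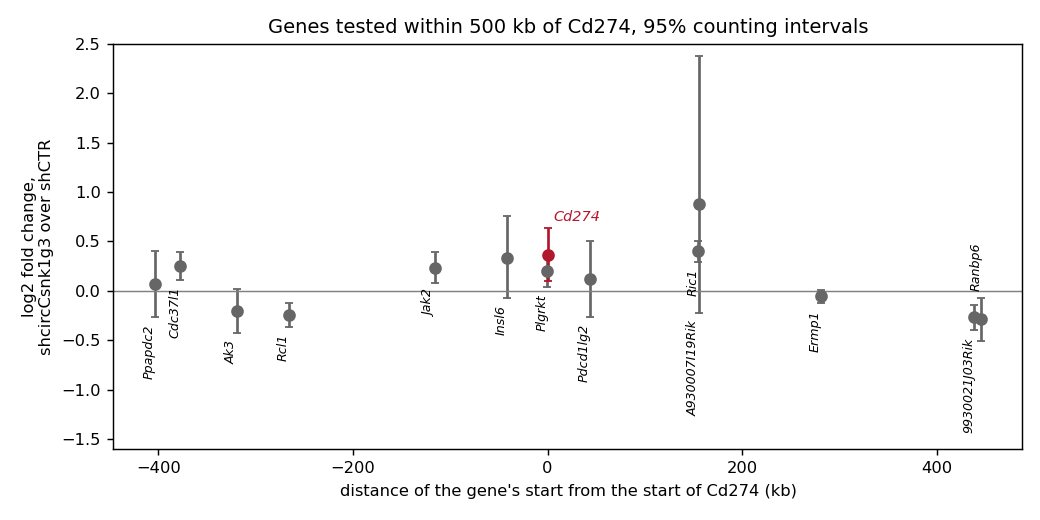
Distance of each gene's start from the start of Cd274 in kb against its log2 fold change, shcircCsnk1g3 over shCTR, with bars for the 95% counting interval. Cd274 (red, 0.37) lies beside Plgrkt at 0.20 and Pdcd1lg2 at 0.12, and Ric1 at 0.40 is as high.

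The engineered and targeted genes were checked in both libraries. Csnk1g3, the host gene of the circRNA, had 2159 counts in shcircCsnk1g3 and 2411 in shCTR, a log2 fold change of -0.05 (interval -0.14 to 0.03). Gene counts do not separate the circular from the linear RNA, and poly(A) selection does not retain circles, so the value does not check the silencing. Ccne1 had 893 and 963 counts and stood at -0.00, and Trp53 had 3841 and 4334 counts and stood at -0.07, where gene counts do not show which exons of a disrupted gene were read. Of 14 reference genes 13 lay below 0, with a median of -0.14. Scaling to that median, a choice made after seeing the data, moved Pvr to 0.56, Cd47 to 0.28 and Nt5e to -0.35, and Cd200 changed sign to 0.12. The values of Csnk1g3, Ccne1 and Trp53 likewise turned to 0.09, 0.14 and 0.074 under this scaling, and the median of the PD-L1 regulators to 0.14.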

How the data were processed

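Poly(A) RNA of 2 mouse sarcoma cell libraries, 1 per group by their labels, was sequenced with a stranded kit. According to the study's methods, the authors used bcl2fastq 2.20, STAR 2.6.1 and RSEM 1.2.28 and deposited counts per gene. The counts the authors deposited are whole numbers and were taken here as rounded estimated counts, since RSEM divides reads that match several genes. The 92 spike-in rows were 0 and were left out. A second deposited table gives TMM-scaled CPM of 11624 genes from the authors, whose selection rule is not stated; it served as an alternative only. The GENCODE release used by the authors is not given in the sources used here, and 25251 gene identifiers were found in M21.

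TMM factors were taken from edgeR 4.0.16 in R 4.3.3 on the genes that had 10 counts or more in either library, and the rest was computed in python 3.11.15 with scipy 1.17.1. Intervals are exact and cover counting error only. The steps were tested on simulated data. Length is the union of annotated exons. The members and gene lists were chosen with earlier results of these data known. Named genes are the members, their binding partners, the engineered genes, Jak1, Jak2, Irf1, Socs1, Nlrc5, Cmtm6, Qpctl and, of each other list, the 2 genes with the largest change among those with at least 100 summed counts. A result for 1 further gene under this rule is not reported here. Further genes were named after their values were seen: Adk, Ada, Entpd1, the nectins, Btn1a1, Vsir, Icosl, Cd40, Icam1, Raet1e, Cd80, Ifih1, Plgrkt, Ric1 and single markers near 0. Alternatives were DESeq2 1.42.0 size factors, total counts, prior counts of 0.5 and 10, other count filters, a smaller and a larger fold threshold, the deposited CPM, and scaling to the reference genes, which was added after seeing the data.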

Additional observations from a re-analysis of the deposited data

How the results depend on the processing

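Of 64 values of the members under the alternatives, 59 moved by less than the counting error or kept their count, 3 fold changes moved by more, and 2 counts of members changed with the threshold. The sign of Cd200, whose interval holds 0, was not stable. Cd274 ranged from 0.35 to 0.51, Pdcd1lg2 from 0.11 to 0.26, Cd276 from 0.19 to 0.34, Cd200 from -0.02 to 0.12 and the members' median from 0.13 to 0.28. At a threshold of 0.32 on the log2 scale, 2 members were higher and 1 was lower. Scaling to the reference genes, chosen after seeing the data, adds 0.14 to every log2 fold change by construction, which gave 0.28 for Cd47, -0.35 for Nt5e and 0.56 for Pvr and turned Jak1 to 0.037 and Trp53 to 0.074. Under it and under total counts, the interval of Cd276 also lay above 0, making 4 members. Over all genes, the number at least 1.5-fold higher and lower was 698 and 817, against 349 and 523 in the deposited CPM (11600 genes), 1765 and 1468 with no count filter, 405 and 533 with at least 50 summed counts, 212 and 335 with at least 200, and 1059 and 605 under the reference-gene scaling, which turns the balance from more lower to more higher. No member passed 1.5-fold under any scaling or prior count run, or in the deposited CPM. No paired analysis was possible because each group held 1 library, and for the same reason no library could be left out. At 118 and 117 counts the interval of Pdcd1lg2 spans 0.38 on either side, so that smaller differences were not detectable.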

Other observations

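Tigit was sequenced at a depth that is unusual for a receptor known from lymphocytes, and was looked at further after its values were seen. Per kilobase of its 919 annotated exon bases it stood at 48.4 CPM in shcircCsnk1g3 and 67.3 in shCTR. Pvr stood at 52.0 and 38.9 on the same scale, but at 110 and 82.0 per kilobase of its longest annotated transcript, a choice of length that leaves Tigit unchanged. Cd3e was at 0 in both libraries and Ptprc had 1 and 0 counts. The gene lies at chr16:43648867-43664146 on the minus strand, and its exons overlap no other annotated exon. The nearest end of Zbtb20, a gene on the plus strand, lies 6264 bases away, and Zbtb20 had 2536 and 2438 counts, a log2 fold change of 0.16 against -0.48 for Tigit. Gene counts do not show where in the gene the reads lay, so whether they come from spliced Tigit transcripts was not tested.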
